A study of Mus musculus with 12 samples.

Results

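The genes described are 8 cadherins and catenins, Cdh11, Cdh13, Cdh2, Cdh3, Jup, Ctnnb1, Ctnna1 and Ctnnd1, taken by gene name from a table of 55401 mouse genes. Jup, which encodes plakoglobin, was chosen by its values in the 4 groups: it was higher with TGF-β1 and lower when an MDSC supernatant was added. Its levels are therefore given as a description, without a test. All 8 genes were among the 12016 that passed the filter on low values.

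The cells were bone marrow mesenchymal stem cells (MSCs) of C57BL/6 mice, which had been purchased, and their mRNA was sequenced in 12 libraries. Control MSCs were untreated, and the other groups all received TGF-β1 at 5 ng/mL, a cytokine that drives fibroblast-like cells towards contractile, matrix-producing myofibroblasts. In 2 of these groups, named TGF-β1/M-MDSC supernatant and, for the other, TGF-β1/G-MDSC supernatant, it was given with the culture supernatant of monocytic (CD11b+Ly6G-Ly6C high) or granulocytic (CD11b+Ly6G+Ly6C low) myeloid-derived suppressor cells, which are immature myeloid cells that had been induced from bone marrow with GM-CSF and IL-6 and sorted. Each of the 4 groups had 3 libraries, and since no label says that they came from separate cultures, the p-values measure the spread between these libraries, which may be technical.

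Cadherins are transmembrane proteins that hold neighbouring cells together through calcium-dependent contacts of their outer domains. Inside the cell, the tail of a classical cadherin binds β-catenin or plakoglobin, which bind α-catenin and through it actin, while p120-catenin binds the tail near the membrane and keeps the cadherin at the surface. Plakoglobin also takes part in desmosomes, and β-catenin also acts in the nucleus as a partner of TCF/LEF factors in Wnt signalling. Cadherin-11 is a cadherin of mesenchymal cells and is known from fibroblasts and myofibroblasts.

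The libraries held 73977669 to 84565450 counts. FPKM are fragments per kilobase of transcript divided by the sequencing depth of the library. The 8 MSC markers summed to 500.2 to 598 FPKM, mostly Itgb1 and Ly6a, and moved in both directions: Itgb1 averaged 254 FPKM in control MSCs and 385 with TGF-β1, while Ly6a (Sca-1) averaged 245 and 16.2, with 92.5 and 66.9 in the M-MDSC and G-MDSC supernatant groups, and Pdgfra averaged 13.96 and 4.94. Eng was below 1 FPKM in every library. Endothelial markers summed to at most 0.632 FPKM, and epithelial markers to 5.18 to 5.70 FPKM in control MSCs, mainly Krt19, and 0.830 to 1.94 FPKM in the other groups. The supernatant groups also held kidney tubule transcripts: the 7 genes of that list summed to 12.1 to 78.5 FPKM with M-MDSC supernatant and 43.1 to 57.1 FPKM with G-MDSC supernatant, against at most 0.140 FPKM in the other groups, in which Kap, Slc34a1, Umod and Aqp2 had 0 counts. The 10 myeloid markers summed to 6.20 to 7.10 FPKM in control MSCs, 2.27 to 3.18 with TGF-β1, 4.32 to 6.77 with M-MDSC supernatant and 5.63 to 8.44 with G-MDSC supernatant. Of these, Ly6g had 152 to 161 counts and Ly6c2 had 393 to 439 in control MSCs, against at most 18 and 79 in the other groups. Lyz2 had 71 to 262 counts in the supernatant libraries and at most 23 in the others. S100a9 had up to 160 counts and Itgam up to 42 in supernatant libraries against at most 1 in the others, and Mpo had 0 counts throughout. The part of these transcripts in the values below was not tested. In bulk RNA, fewer cells of a type and less RNA per cell cannot be told apart.

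Cdh11 rose with TGF-β1, and it was partly reduced with either supernatant. Cdh11 (ENSMUSG00000031673; GRCm38 chr8:102632095-102785642, minus strand), the gene of cadherin-11, was at 28.2, 25.4 and 27.8 FPKM in control MSCs and at 61.0, 58.6 and 57.4 FPKM with TGF-β1. It was at 48.6, 50.5 and 48.9 FPKM with M-MDSC supernatant and at 48.3, 44.1 and 49.5 FPKM with G-MDSC supernatant. Both supernatant groups lay between the control and the TGF-β1 libraries without overlap, and they overlapped each other. The mean was 2.17-fold higher with TGF-β1 than in control MSCs, and the log2 fold change was 1.18 ± 0.053 (SE) in edgeR’s quasi-likelihood test (adjusted p = 4.74e-08). Against TGF-β1 alone the log2 fold change was -0.28 ± 0.052 with M-MDSC supernatant (adjusted p = 0.0109) and -0.35 ± 0.052 with G-MDSC supernatant (adjusted p = 0.00266). Measured on the group means, 30.4% of the rise was absent with M-MDSC and 36.7% with G-MDSC supernatant, so that Cdh11 stayed above control, by log2 0.90 (adjusted p = 3.62e-07) and 0.83 (adjusted p = 6.46e-07). These Cdh11 calls held under each of the 21 alternative settings of the fit. Under the study's own rule, which also asks for a fold above 2 or below 0.5, only the rise of Cdh11 with TGF-β1 was called among the 7 genes other than Jup, and the changes with a supernatant were not.

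Cdh13 fell with TGF-β1, and its levels with either supernatant overlapped those with TGF-β1. Cdh13 (ENSMUSG00000031841; chr8:118283733-119324921, plus strand) encodes T-cadherin, which is anchored by a lipid and has no cytoplasmic tail for catenins. Its level was 9.96, 10.5 and 10.4 FPKM in control MSCs, 5.78, 5.52 and 5.72 FPKM with TGF-β1, 5.46, 5.47 and 6.00 FPKM with M-MDSC supernatant and 5.44, 5.15 and 5.98 FPKM with G-MDSC supernatant. The control libraries stood above all others, and the 3 groups with TGF-β1 overlapped. The log2 fold change with TGF-β1 was -0.80 ± 0.060 (adjusted p = 2.26e-06), and adding a supernatant to TGF-β1 gave -0.03 ± 0.060 for M-MDSC (adjusted p = 0.858) and -0.06 ± 0.060 for G-MDSC (adjusted p = 0.678).

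Cdh2 and Cdh3, the genes of N-cadherin and P-cadherin, did not pass the test with TGF-β1. Cdh2 (ENSMUSG00000024304; chr18:16588877-16809246, minus strand) was at 12.54, 11.99 and 11.43 FPKM in control MSCs and at 10.08, 11.41 and 11.32 FPKM with TGF-β1. With M-MDSC supernatant Cdh2 was at 10.8, 10.98 and 10.1 FPKM, and G-MDSC supernatant gave 8.62, 10.6 and 10.98 FPKM. The control libraries were the highest by FPKM, but by a margin that the count test did not call (log2 -0.07 ± 0.088 with TGF-β1, adjusted p = 0.573). Cdh3 (ENSMUSG00000061048; chr8:106510891-106557297, plus strand) was low, at 1.34, 1.57 and 1.34 FPKM in control MSCs, 1.20, 1.35 and 1.15 FPKM with TGF-β1, 0.903, 1.25 and 1.23 FPKM with M-MDSC supernatant and 0.878, 1.13 and 0.921 FPKM with G-MDSC supernatant. Its only call was with G-MDSC supernatant against control, a log2 fold change of -0.51 ± 0.15 (adjusted p = 0.0222), which was lost without control replicate 2 and without replicate 1 or 3 of the G-MDSC supernatant group, with adjusted p from 0.00782 to 0.0909 over the 21 alternatives.

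**Figure D1:**
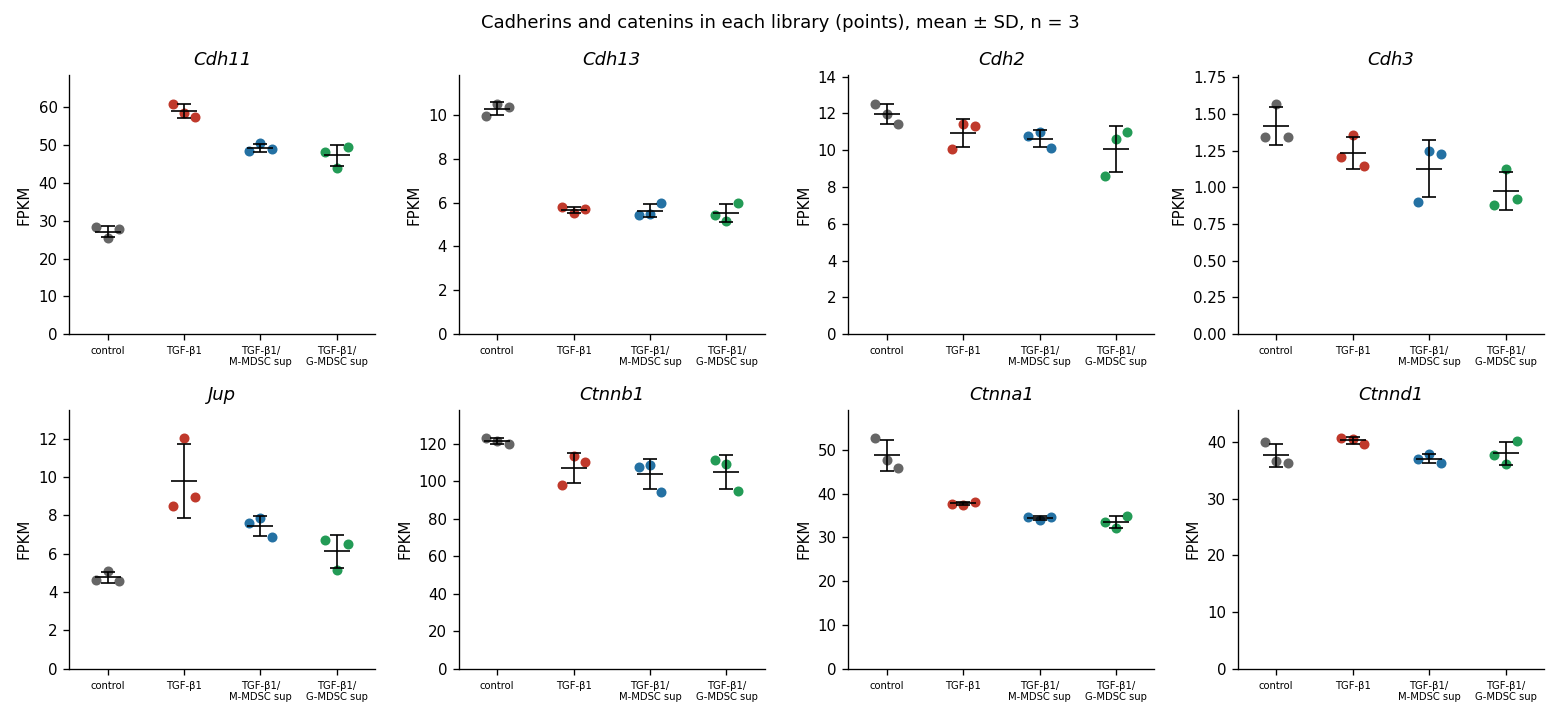
FPKM (y axis, from 0) of the 8 genes in each library (points) by group (x axis), with the group mean and SD as bars, n = 3. Cdh11 and Jup are higher with TGF-β1, to 57.4 to 61.0 and 8.48 to 12.01 FPKM, and lie between control and TGF-β1 with either supernatant, while Cdh13 and Ctnna1 are lower in all groups with TGF-β1.

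The cadherin make-up of the cells shifted accordingly. Of 18 type I and type II (classical) cadherins, 5 passed the filter, and 4 had a mean of at least 1 FPKM over the 12 libraries: Cdh11, Cdh2, Cdh3 and Cdh24, a further type II cadherin. The summed level of the 18 genes was 48.2 ± 1.45 FPKM (SD, n = 3) in control MSCs, 77.9 ± 1.68 with TGF-β1, 67.2 ± 1.07 with M-MDSC and 64.4 ± 2.87 with G-MDSC supernatant. Cdh11 made up 56.3 ± 1.75% of that sum in control MSCs and 75.7% with TGF-β1 (74.5 to 77.1% over the libraries), while Cdh2 made up 24.9 ± 1.00% and 14.05 ± 1.15%. With the M-MDSC and the G-MDSC supernatant Cdh11 made up 73.4% in both, close to the share with TGF-β1 alone, and Cdh2 made up 15.8% and 15.6%. The ratio of Cdh11 to Cdh2 was thus 2.27 ± 0.156 in control MSCs and 5.42, 4.64 and 4.75 with TGF-β1, M-MDSC supernatant and G-MDSC supernatant. E-cadherin (Cdh1), the cadherin of epithelia, had at most 4 counts in any library of the control and TGF-β1 groups, and 12 to 43 counts in the supernatant groups.

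**Figure D2:**
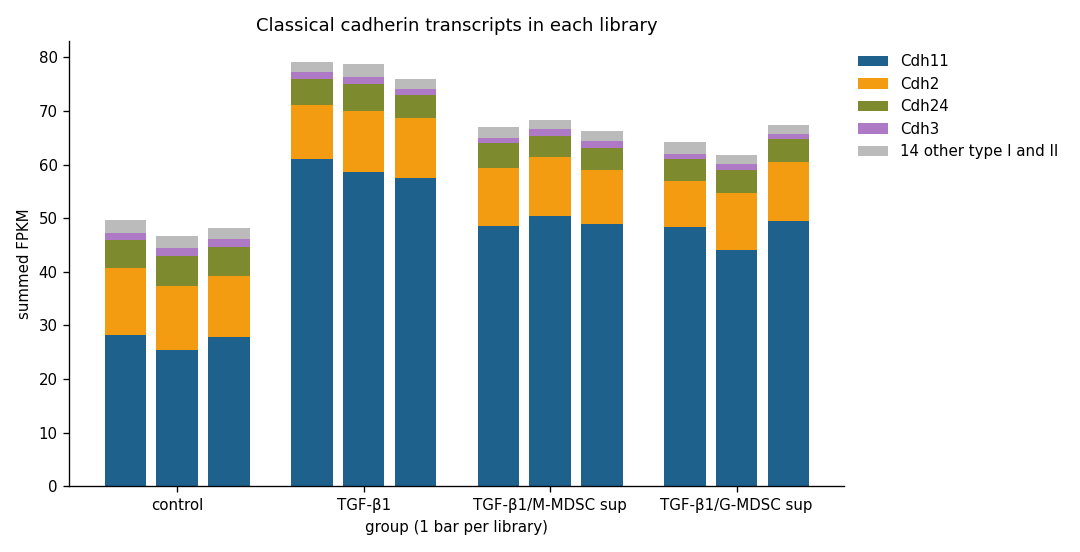
Summed FPKM of the 18 classical cadherins (y axis, from 0), 1 stacked bar per library, grouped by treatment (x axis), with the share of each gene in colour. The bars rise from 46.8 to 49.6 FPKM in control MSCs to 76.0 to 79.2 FPKM with TGF-β1, and the rise of Cdh11, from a mean of 27.1 to 59.0 FPKM, exceeds that of the sum.

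Among the catenins, Jup (ENSMUSG00000001552; chr11:100368958-100397749, minus strand), the gene of plakoglobin, was at 4.65, 5.08 and 4.56 FPKM in control MSCs and at 8.48, 12.01 and 8.94 FPKM with TGF-β1. With M-MDSC supernatant it was at 7.61, 7.87 and 6.88 FPKM, and with G-MDSC supernatant at 6.71, 5.15 and 6.50 FPKM. No group overlapped another, in the order control, G-MDSC supernatant, M-MDSC supernatant and TGF-β1, although the lowest G-MDSC supernatant library lay just above the highest control library. The mean with TGF-β1 was 2.06-fold that of control MSCs, a log2 fold change of 1.10 ± 0.14 (SE) on counts. It was -0.42 ± 0.14 with M-MDSC and -0.71 ± 0.14 with G-MDSC supernatant, against TGF-β1 alone. Of the rise, 46.7% was absent with M-MDSC and 73.1% with G-MDSC supernatant. The second TGF-β1 library was the highest, and without it these 3 log2 fold changes were 0.92, -0.25 and -0.53.

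The start of Jup is shown beside that of its close relative Ctnnb1, whose levels follow. Each sequence is the sense strand from 250 bases before to 50 after a RefSeq start site (build GRCm38.p6), and the table used held such windows for 3 of the 8 genes, Jup, Ctnnb1 and Ctnnd1. Capitals mark the GC box GGGCGG or its reverse complement CCGCCC. The Jup window is chr11:100397741-100398040 on the minus strand, and the Ctnnb1 window, the first of 2 for this gene, is chr9:120933150-120933449 on the plus strand.
Jup: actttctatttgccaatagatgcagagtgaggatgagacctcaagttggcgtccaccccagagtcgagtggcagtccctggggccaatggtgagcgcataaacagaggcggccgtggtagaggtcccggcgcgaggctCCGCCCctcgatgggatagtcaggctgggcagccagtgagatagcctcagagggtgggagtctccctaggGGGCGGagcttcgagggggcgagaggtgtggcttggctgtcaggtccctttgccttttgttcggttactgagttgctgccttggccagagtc
Ctnnb1: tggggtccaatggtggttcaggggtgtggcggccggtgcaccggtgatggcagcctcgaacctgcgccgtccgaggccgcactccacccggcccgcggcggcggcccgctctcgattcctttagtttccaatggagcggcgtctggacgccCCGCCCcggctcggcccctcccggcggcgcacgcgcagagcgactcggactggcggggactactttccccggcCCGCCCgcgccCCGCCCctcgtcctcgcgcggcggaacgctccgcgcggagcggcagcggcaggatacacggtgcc
The Jup window had 2 GC boxes, with their first bases at -112 and -42 from the start site, and the Ctnnb1 window had 3, at -99, -26 and -15. Of 32851 mouse windows of this length, 35.7% held at least 1 GC box. The SMAD element CAGAC (or GTCTG), present in 49.6% of the windows, occurred once in the Ctnnb1 window, at -110, and had no match in the Jup window. Likewise the E-box CAGGTG (20.2% of windows), the TEAD element CATTCC (14.7%) and the TCF element CTTTGA (5257 windows), searched on both strands, had no match in either window. None of these matches overlapped, and a missing match says only that these letters were not in this stretch.

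Ctnnb1 (ENSMUSG00000006932; chr9:120929216-120960507, plus strand), the gene of β-catenin, was the most abundant of the 8 genes per length. It was at 123, 121 and 119.7 FPKM in control MSCs, 98.3, 113 and 110.5 FPKM with TGF-β1, 108, 109 and 94.5 FPKM with M-MDSC supernatant and 112, 109 and 94.7 FPKM with G-MDSC supernatant. The control libraries were the highest and the other 3 groups overlapped. The log2 fold change of Ctnnb1 with TGF-β1 was -0.12 ± 0.077 (adjusted p = 0.275), and those with a supernatant against TGF-β1 were -0.07 ± 0.077 (adjusted p = 0.711) and -0.06 ± 0.077 (adjusted p = 0.801). There were 3.93 ± 0.224 Jup per 100 Ctnnb1, as a ratio of FPKM, in control MSCs, 9.11 ± 1.32 with TGF-β1, 7.19 ± 0.107 with M-MDSC and 5.87 ± 1.08 with G-MDSC supernatant. Plakoglobin transcripts thus remained few beside those of β-catenin in every library.

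Ctnna1 fell with TGF-β1, and its levels with the supernatants were no closer to control. Ctnna1 (ENSMUSG00000037815; chr18:35118859-35254779, plus strand), the gene of αE-catenin, was at 52.6, 47.6 and 45.9 FPKM in control MSCs and at 37.7, 37.4 and 38.1 FPKM with TGF-β1. It was at 34.7, 34.0 and 34.7 FPKM with M-MDSC supernatant and at 33.4, 32.1 and 34.8 FPKM with G-MDSC supernatant. The 3 levels of control, TGF-β1 and the supernatant groups did not overlap, while both supernatant groups overlapped each other. With TGF-β1 the log2 fold change was -0.31 ± 0.049 (adjusted p = 0.000565). Against TGF-β1 alone it was -0.20 ± 0.049 with G-MDSC supernatant (adjusted p = 0.0394), a call that 14 of 21 alternatives lost, with adjusted p from 0.0138 to 0.139, and -0.15 ± 0.049 with M-MDSC supernatant (adjusted p = 0.131). Against control MSCs the changes were -0.46 (adjusted p = 3.01e-05) and -0.51 (adjusted p = 1.50e-05) with M-MDSC and G-MDSC supernatant, and both held in all 21 alternative settings of the fit, though not under the study's fold limit.

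Ctnnd1 changed least among the called genes. Ctnnd1 (ENSMUSG00000034101; chr2:84600071-84650745, minus strand), the gene of p120-catenin, was at 40.0, 36.7 and 36.3 FPKM in control MSCs, 40.6, 40.6 and 39.6 FPKM with TGF-β1, 36.9, 37.8 and 36.3 FPKM with M-MDSC supernatant and 37.7, 36.0 and 40.2 FPKM with G-MDSC supernatant. The first control library reached into the range of the TGF-β1 libraries. The log2 fold change with TGF-β1 was 0.15 ± 0.049 (adjusted p = 0.0327), and 9 of 21 alternatives lost this call, with adjusted p from 0.0132 to 0.163, among them those without any 1 of the 3 TGF-β1 libraries or without control replicate 2 or 3. With a supernatant against TGF-β1 the values were -0.14 ± 0.049 for M-MDSC (adjusted p = 0.158) and -0.11 ± 0.049 for G-MDSC (adjusted p = 0.279).

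Counted together, 2 of the 7 genes other than Jup rose with TGF-β1 and 2 fell, while 3 did not pass the test. Of all 12016 genes tested, 16.1% rose and 17.9% fell in that comparison. With M-MDSC supernatant against TGF-β1 none rose and 1 fell (Cdh11), where 2.83% of all genes rose and 1.95% fell. With G-MDSC supernatant none rose and 2 fell (Cdh11 and Ctnna1), where 3.1% of all genes rose and 2.46% fell. The median log2 fold change of the 7 genes was -0.12, -0.14 and -0.15 in these comparisons, against 0.00048, -0.013 and -0.014 over all genes tested. The supernatant comparisons share the TGF-β1 libraries. Against control MSCs, 1 of the 7 rose and 2 fell with M-MDSC supernatant (16.4% and 18.9% of all genes), and 1 rose and 3 fell with G-MDSC supernatant (16.4% and 18.4%).

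Between the M-MDSC and the G-MDSC supernatant, none of the 7 genes other than Jup was called in edgeR, against 0.0999% of all genes called higher and 0.025% called lower with M-MDSC supernatant. None of the 7 was called in any alternative, and 0 had an unadjusted p under 0.05. Jup was higher in all 3 M-MDSC supernatant libraries than in all 3 of G-MDSC supernatant, by log2 0.29 ± 0.14. This difference was 0.17 without replicate 2 of the G-MDSC supernatant group and at most 0.36 over the 21 alternatives. It is given without a test, since the values of Jup in both groups entered its choice. The log2 difference of Cdh3 was 0.21 ± 0.15 (adjusted p = 0.930), and that of Cdh11 was 0.06 ± 0.052 (adjusted p = 0.957).

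**Figure D3:**
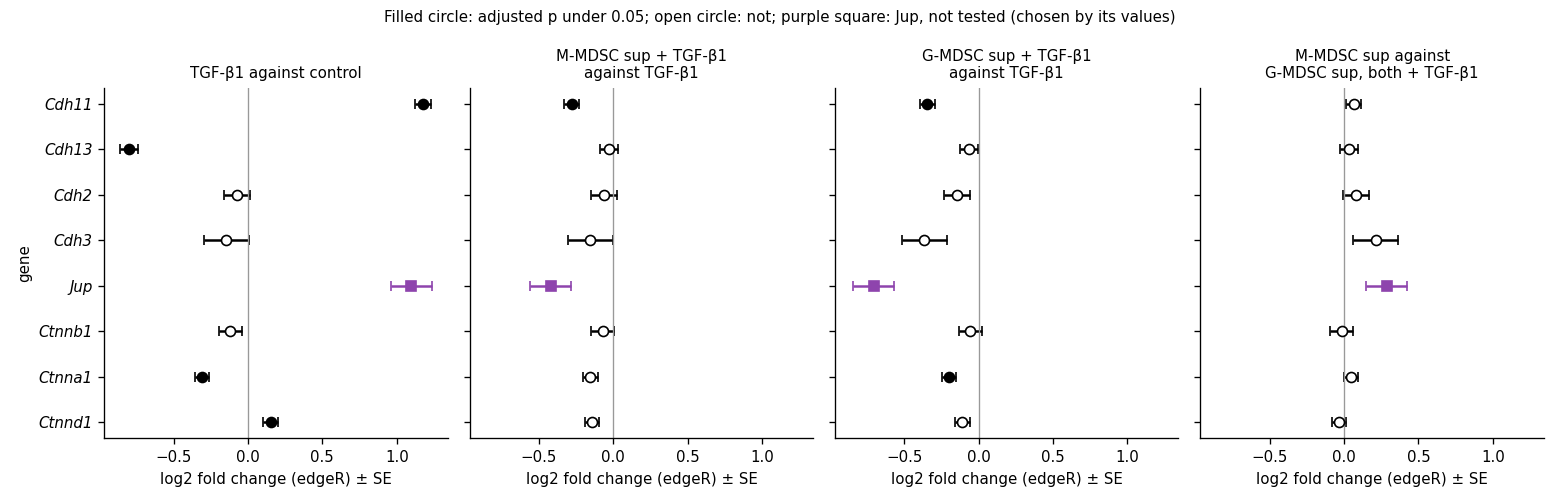
Log2 fold change with its SE (x axis, edgeR) of the 8 genes (y axis) in 4 comparisons, filled circles for an adjusted p under 0.05, open circles for other tested values and purple squares for Jup, which was chosen by its values and is shown without a test. Cdh11 is called in the first 3 comparisons, at 1.18, -0.28 and -0.35, and no tested gene of these is called between the supernatants.

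The other genes of the junction were counted over 7 lists of 105 genes, of which 48 passed the filter. With TGF-β1, 7 of the 48 rose, 13 fell and 28 did not pass the test, where 16.1% of all genes tested rose and 17.9% fell. With M-MDSC supernatant against TGF-β1, 1 fell and none rose (1.95% and 2.83% of all genes), and with G-MDSC supernatant 3 fell and none rose (2.46% and 3.1%). Leaving out a library gave 0 to 3 calls with M-MDSC and 1 to 4 with G-MDSC supernatant. The 20 genes called with TGF-β1 include 4 that passed the filter on low values only through the group where they were high, Cdh22, Arvcf and Axin2 through the control libraries and Pkp1 through the libraries with TGF-β1. Their differences from control are therefore given without a p, and without these 4 the counts were 6 that rose and 10 that fell of 44. Between the supernatants none was called in edgeR, 4 had an unadjusted p under 0.05, and DESeq2 called 1.

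The desmosomal list held 16 genes, and the 2 that passed the filter, the plakophilins Pkp1 and Pkp2, were both higher with TGF-β1, where 16.1% of all genes tested rose. Of these, Pkp1 passed the filter only through the libraries with TGF-β1. Plakophilins are armadillo-repeat proteins, like plakoglobin, that tie desmosomal cadherins to desmoplakin. Pkp1 was at 0.226, 0.161 and 0.256 FPKM in control MSCs, 2.34, 3.09 and 2.37 FPKM with TGF-β1, 1.75, 1.56 and 1.503 FPKM with M-MDSC supernatant and 1.51, 1.39 and 1.23 FPKM with G-MDSC supernatant. All TGF-β1 libraries were above all supernatant libraries, and these were above all control libraries. The log2 fold change of Pkp1 with TGF-β1 was 3.64 ± 0.19, and against TGF-β1 it was -0.94 ± 0.17 with G-MDSC supernatant (adjusted p = 0.00675) and -0.72 ± 0.17 with M-MDSC supernatant (adjusted p = 0.0332), where 11 of 21 alternatives lost the call. Pkp2, which the size rule for naming genes did not reach and which was picked after its values were seen, was at 3.98 to 4.19 FPKM in control MSCs, 6.21 to 7.37 with TGF-β1, 5.48 to 6.11 with M-MDSC supernatant and 5.23 to 5.93 with G-MDSC supernatant. Its log2 fold change was 0.80 ± 0.075 with TGF-β1 (adjusted p = 1.27e-05), -0.33 ± 0.075 with G-MDSC supernatant against TGF-β1 (adjusted p = 0.0288, lost in 6 of 21 alternatives) and -0.25 ± 0.075 with M-MDSC supernatant (adjusted p = 0.105). The partners of these proteins in the desmosome were nearly absent: the 9 desmosomal cadherins, Dsg and Dsc, summed to at most 15 counts in any library, and desmoplakin (Dsp) had at most 32 counts, or 0.0343 FPKM. Ppl (periplakin) averaged 0.751 FPKM in control MSCs and 0.0601 with TGF-β1, Perp 0.785 and 0.314, and Pkp3 0.0875 and 0.0390, while Evpl (envoplakin) averaged 0.0953 and 0.151. These 4 genes did not pass the filter and were not tested.

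**Figure D4:**
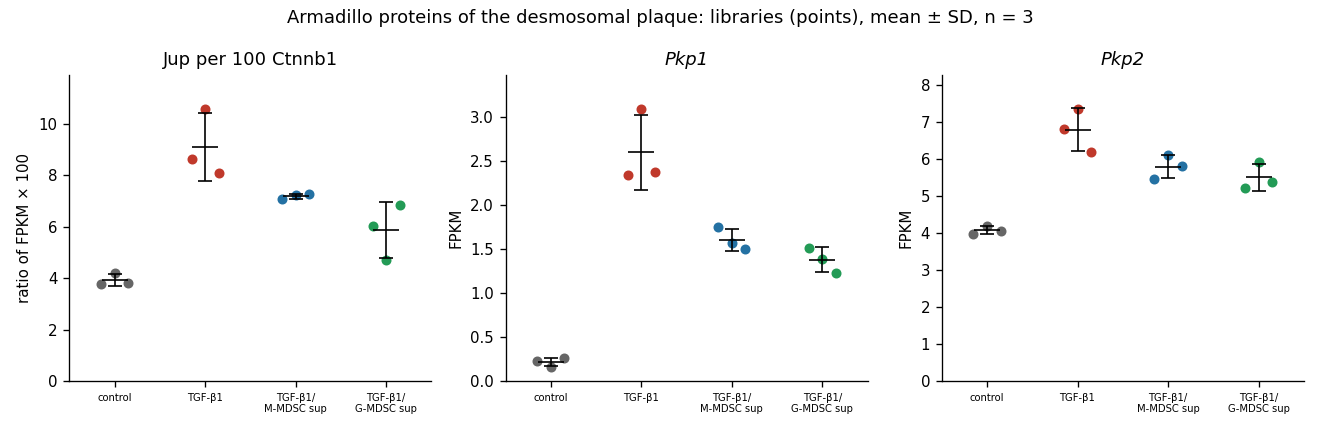
Jup per 100 Ctnnb1 as a ratio of FPKM, and FPKM of Pkp1 and Pkp2 (y axes, from 0), in each library (points) by group (x axis), with mean and SD, n = 3. In each panel all TGF-β1 libraries lie above all libraries of the supernatant groups, and these above all control libraries. Jup was chosen by its values, and Pkp2 was picked after its values were seen. Pkp1 passed the filter only through the libraries with TGF-β1.

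Of 50 other cadherins and catenins 11 were tested, of which none rose with TGF-β1 and 4 fell, where 16.1% of all genes rose and 17.9% fell. Without Cdh22 and Arvcf, which passed the filter only through the control libraries, 2 of 9 fell. Cdh15, which was at 0 to 4 counts in control MSCs and 260 to 416 with TGF-β1, did not pass the filter. Cdh22, a type II cadherin known from the brain, was at 1.66 to 1.81 FPKM in control MSCs and 0.541 to 0.692 with TGF-β1, a log2 fold change of -1.48 ± 0.19. Ctnnal1, the gene of α-catulin, was at 4.59 to 5.20 FPKM and 1.73 to 2.02 FPKM, a change of -1.31 ± 0.082 (adjusted p = 5.39e-07). Arvcf, a catenin of the p120 family like Ctnnd1, was at 1.02 to 1.07 FPKM and 0.453 to 0.473 FPKM, a change of -1.09 ± 0.17. With the supernatants Cdh22 was at 0.482 to 0.864 FPKM, Ctnnal1 at 1.65 to 1.89 and Arvcf at 0.402 to 0.643, all below their control libraries. The protocadherin gene Pcdh7 was called only with M-MDSC supernatant against control (log2 fold change -1.14 ± 0.21, adjusted p = 0.00154), at 1.52 to 2.33 FPKM against 3.48 to 5.29 FPKM, and at 2.83 to 4.27 FPKM with G-MDSC supernatant. Its difference between the supernatants, -0.83 ± 0.21, did not pass the test (adjusted p = 0.288).

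Of the partners that link junctions to actin, 19 of 22 passed the filter, and 4 rose with TGF-β1 and 7 fell (16.1% and 17.9% of all genes). Lima1, the gene of the actin cross-linker EPLIN that binds α-catenin, was at 89.2 to 95.5 FPKM in control MSCs and 41.3 to 45.3 with TGF-β1, a log2 fold change of -1.04 ± 0.059 (adjusted p = 2.56e-07). Afdn, the gene of afadin, which ties nectins to actin, was at 10.999 to 14.6 FPKM and 6.05 to 6.41 FPKM, a change of -0.95 ± 0.13 (adjusted p = 0.000189). Neither gene overlapped between control and TGF-β1, and both stayed near the TGF-β1 level with the supernatants, at 41.0 to 47.2 FPKM for Lima1 and 5.14 to 7.20 FPKM for Afdn.

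Among the genes of β-catenin turnover and its TCF partners, 16 of 17 passed the filter, and 1 rose with TGF-β1, 2 fell and 13 were not called, shares no higher than the 16.1% and 17.9% of all genes. The 2 that fell include Axin2, which passed the filter only through the control libraries. Axin2, a scaffold of β-catenin destruction and a well-known Wnt target, was at 1.18 to 1.74 FPKM in control MSCs and 0.517 to 0.800 with TGF-β1, a log2 fold change of -1.17 ± 0.20. Lef1, a DNA-binding partner of β-catenin, was at 1.01 to 1.35 FPKM and 2.28 to 2.47 FPKM, a change of 1.02 ± 0.11 (adjusted p = 2.93e-05). The supernatants left both near the level with TGF-β1, at 0.521 to 0.749 FPKM for Axin2 and 2.13 to 2.53 FPKM for Lef1, and the log2 differences from TGF-β1 were between -0.16 and -0.013, none of them called.

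**Figure D5:**
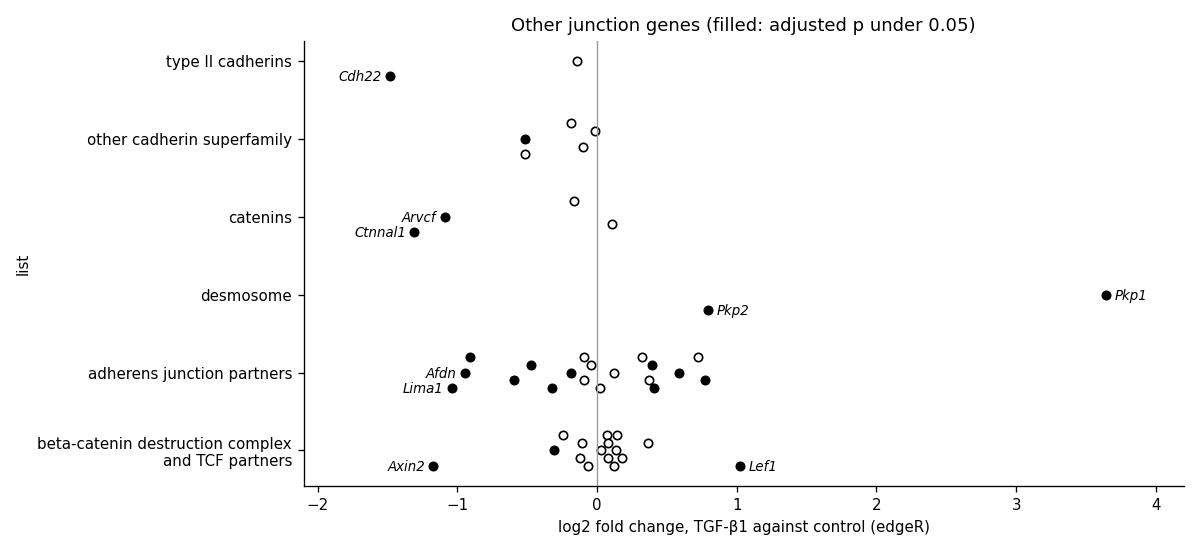
Log2 fold change with TGF-β1 against control (x axis, edgeR) of the 48 tested junction genes by list (y axis), 1 circle per gene, filled where the adjusted p was under 0.05, with the spread within a list for legibility only. Pkp1 lies at 3.64 and Cdh22 at -1.48. Both are filled, as are Arvcf and Axin2, although these genes passed the filter only through the group where they were high.

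The tested genes whose levels followed Jup most closely over the 12 libraries, by Pearson correlation of log2(FPKM + 1), were Fads2, a fatty acid desaturase (r = 0.954), Col4a1, a basement membrane collagen (0.942), Loxl2, a lysyl oxidase that cross-links collagen (0.938), Tln2, a talin that links integrins to actin (0.936) and Col4a2 (0.921). Since Jup was chosen for its pattern and these genes for their likeness to it, their order of levels was fixed by that choice, for example 11.1, 25.3, 17.1 and 16.1 FPKM for Loxl2 in control, TGF-β1, M-MDSC and G-MDSC supernatant. Among the 8 genes, Jup was nearest to Cdh11 (r = 0.848), and Cdh13 to Ctnna1 (0.934), while Cdh11 and Cdh13 ran opposite (-0.924). These correlations describe 12 libraries that fall into 4 groups and share those groups' treatments.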

How the data were processed

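Poly(A) RNA of 12 MSC libraries was sequenced. Per the labels, reads were trimmed with cutadapt 1.9, aligned with HISAT2 2.0.4 and assembled with StringTie 1.3.4d. The authors deposited raw counts per gene and the FPKM calculated from them on GRCm38; the tool that made the counts is not given in the sources used here. A count of 0 has an FPKM of 0.0001 in the deposited table, treated as 0 in sums and shares, and 44.3% of nonzero counts up to 12 are 4, 8 or 12.

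Testing covered genes that reached 1 FPKM in 3 or more libraries, with edgeR 4.0.16 (R 4.3.3): TMM scaling, 4 groups in 1 fit, two-sided quasi-likelihood F test, Benjamini-Hochberg adjustment over 12016 genes and calls at an adjusted p under 0.05. The SE is the log2 fold change divided by the square root of F. FPKM carry no TMM scaling, and the TMM factors were 1.02 to 1.03 in control libraries and 0.978 to 0.983 with TGF-β1 alone. Small differences in FPKM between these groups can therefore differ from those of the tests. Alternatives covered scaling, the filter, DESeq2 1.42.0, limma 3.58.1 on log2(FPKM + 1) and log2(FPKM + 0.1), the groups fitted, a replicate block, counts divided by 4, the study's call rule (fold above 2 or below 0.5 with an unadjusted p under 0.05) and leaving out each library. The same settings for genes named from the lists were added after the data were seen. The code was tested on simulated data. The first criterion for this test, set over large and small changes together, was not met and was replaced by one for each size of change, with the fit left as it was. Many of the smaller changes put into those data were not called, so a gene that was not called may hold a small change.

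The 8 genes and the junction and marker lists were chosen with earlier results of these data known. Named from each list were up to 3 other genes called in any of 6 comparisons with an absolute log2 fold change of at least 1, and the 5 genes most correlated with Jup.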

Additional observations from a re-analysis of the deposited data

How the results depend on the processing

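The 7 genes other than Jup gave 882 values over the alternatives, of which 837 kept their direction and their side of the threshold, 26 lost a call, 6 gained one and 13 changed sign. For Jup, given without a test, 126 of 126 values kept their direction, and 2, with limma on log2(FPKM + 1), moved by more than the spread between libraries. Of 22 alternatives, the study's call rule with its 2-fold limit changed most: it called 1 of the 7 genes and 7 of the junction genes with TGF-β1 against control, and 0 of the 7 genes in each comparison of a supernatant group with TGF-β1 or control, as well as 0 of the junction genes with either supernatant against TGF-β1. The junction genes called by this rule include Cdh22, Arvcf, Axin2 and Pkp1, which passed the filter only through the group where they were high. For G-MDSC supernatant against TGF-β1, 1 of the 7 genes was called with no filter on FPKM, with limma at either pseudocount, with only the groups compared and with the replicate block, and leaving out a library gave 1 to 2. Of the junction genes, M-MDSC supernatant against TGF-β1 gave 2 calls with no filter, 3 with edgeR's own filter, 5 with DESeq2, 0 with only the groups compared, 0 with the replicate block and 0 to 3 without a library, and G-MDSC supernatant gave 5 with edgeR's own filter, 5 with DESeq2 and 1 to 4 without a library. Between the supernatants DESeq2 called 1. The share of all genes called was not computed for the alternatives, so these counts cannot be set against it.

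The sign changes were of values near 0 that were not called. Ctnnd1 with M-MDSC supernatant against control was -0.023 and -0.024 with limma at a pseudocount of 1 and 0.1, and ranged from -0.016 to 0.051 without a library; with G-MDSC supernatant it ranged from -0.0014 to 0.086. Without a library, the difference between the supernatants ranged from -0.018 to 0.15 for Cdh2, -0.016 to 0.096 for Cdh13, -0.084 to 0.048 for Ctnnb1 and -0.071 to 0.012 for Ctnnd1, and Ctnnb1 with G-MDSC supernatant against TGF-β1 from -0.12 to 0.012. The cause of these shifts was not tested.

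Libraries with the same replicate number did not deviate together: the mean correlation of their residuals was 0.000584 over 18 pairs (-0.108 to 0.0829), against -0.00026 over 36 pairs with different numbers. The replicate block was therefore kept as an alternative only. The variance between libraries of a group was 45.0 to 62.7 times that of counting alone, taken over all genes; the share of counting error in single genes was not computed.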

Other observations

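Some genes of the junction lists that did not pass the filter on low values still differed between groups in their counts, and were picked after their values were seen. Cdh15, the gene of M-cadherin, which is known from muscle cells, had 0, 0 and 4 counts in control MSCs and 260, 416 and 290 with TGF-β1, with 253, 202 and 254 with M-MDSC supernatant and 272, 178 and 158 with G-MDSC supernatant. The TGF-β1 libraries were at 0.889 to 1.40 FPKM and the supernatant libraries at 0.540 to 0.932 FPKM. Ppl, the gene of periplakin, a plakin of epithelial junctions, went the other way, with 508, 391 and 485 counts in control MSCs, 42, 41 and 30 with TGF-β1, 19, 25 and 66 with M-MDSC supernatant and 38, 19 and 46 with G-MDSC supernatant.

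Cdh16, the cadherin of kidney tubules, had 0 counts in all libraries of the control and TGF-β1 groups, 73, 94 and 160 counts with M-MDSC supernatant and 160, 119 and 129 counts with G-MDSC supernatant. In the same libraries Kap, an abundant kidney transcript, was at 13.1, 9.20 and 69.2 FPKM and at 37.1, 51.2 and 47.3 FPKM. Where these transcripts came from was not tested.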
